A study of Homo sapiens with 4 samples.

Results

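The miR-26 family was followed through small RNA sequencing of H661 cells, a human line established from a large cell carcinoma of the lung. Members were chosen by name, as every row for either arm of miR-26a or miR-26b, which gave 5 of the 826 mature microRNAs (miRNAs) in the count table. These were hsa-miR-26a-5p, hsa-miR-26b-5p, hsa-miR-26b-3p and the 3p arms hsa-miR-26a-1-3p and hsa-miR-26a-2-3p, written below without the species prefix. One group of cells received the solvent dimethyl sulfoxide (DMSO) and the other received 2.5 µM entinostat, a drug that inhibits histone deacetylases of class I, each for 8 h and with 2 libraries. No genetic change is named for the line in the labels, and whether a treatment's 2 libraries are from separate cultures is not labelled. The p-values therefore reflect variation among these particular libraries, which may be technical. The design asked how miRNA levels differed between the treatments.

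A miRNA is cut from a hairpin transcript, and one of its arms usually becomes the guide strand that an Argonaute protein holds. The guide pairs with target mRNAs mainly through its seed, bases 2 to 8 from the 5′ end, and lowers their translation and stability. The miR-26 hairpins lie inside genes for small phosphatases that act on the C-terminal domain of RNA polymerase II. Earlier work has described miR-26 as repressed by MYC and as an inhibitor of EZH2, the histone methyltransferase of Polycomb repressive complex 2.

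All 5 members matched an entry of the RefSeq miRNA table (GRCh38.p14), as did 729 of the 826 rows. The mature sequences are shown because they set what the libraries could tell apart. They run 5′ to 3′, with the seed in capitals:
miR-26a-5p: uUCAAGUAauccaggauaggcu
miR-26b-5p: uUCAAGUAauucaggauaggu
miR-26a-1-3p: cCUAUUCUugguuacuugcacg
miR-26a-2-3p: cCUAUUCUugauuacuuguuuc
miR-26b-3p: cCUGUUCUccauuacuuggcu

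Both 5p arms shared the seed UCAAGUA and their first 10 bases. Counted from 1 at the 5′ end of miR-26a-5p, they differed by C11U and C21U, and miR-26b-5p was 21 bases long against 22. No source used here names the counting tool, its miRNA annotation or its rule for reads shared by similar miRNAs. How far reads of the abundant miR-26a-5p entered the row of miR-26b-5p was therefore not tested. The 3p arms of the 2 miR-26a hairpins shared the seed CUAUUCU and differed at 5 positions, G11A, C19U, A20U, C21U and G22C. The seed of miR-26b-3p, CUGUUCU, differed from theirs by A4G.

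The row of miR-26a-5p sums 2 loci, because the genome holds that sequence in 2 hairpins. The hairpins are shown to place the arms, in capitals, on either side of the loop:
MIR26A1: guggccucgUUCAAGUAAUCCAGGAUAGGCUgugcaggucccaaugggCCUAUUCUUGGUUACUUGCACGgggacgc
MIR26A2: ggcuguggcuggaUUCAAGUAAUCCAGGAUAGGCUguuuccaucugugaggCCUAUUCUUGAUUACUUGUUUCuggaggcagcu
MIR26B: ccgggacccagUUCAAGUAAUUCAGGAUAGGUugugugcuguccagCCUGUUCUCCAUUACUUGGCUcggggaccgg

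MIR26A1 lies at chr3:37969404-37969480 on the plus strand, MIR26A2 at chr12:57824609-57824692 on the minus strand, and MIR26B at chr2:218402646-218402722 on the plus strand. Each hairpin is intronic and lies on the strand of its host gene in GENCODE release 29 (GRCh38), with no overlap with an exon of the principal transcript. CTDSPL, the host of MIR26A1, carries it in intron 5 of 7, which is 3524 bases long. CTDSP2 carries MIR26A2 in intron 5 of 7, which is 2026 bases long, 289 bases before the next exon. CTDSP1 carries MIR26B in intron 4 of 6, which is 629 bases long, 240 bases after the exon before it. The hairpins start 107230, 22047 and 2891 bases from the start of their host transcripts. Host mRNAs were not measured in these libraries.

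**Figure D1:**
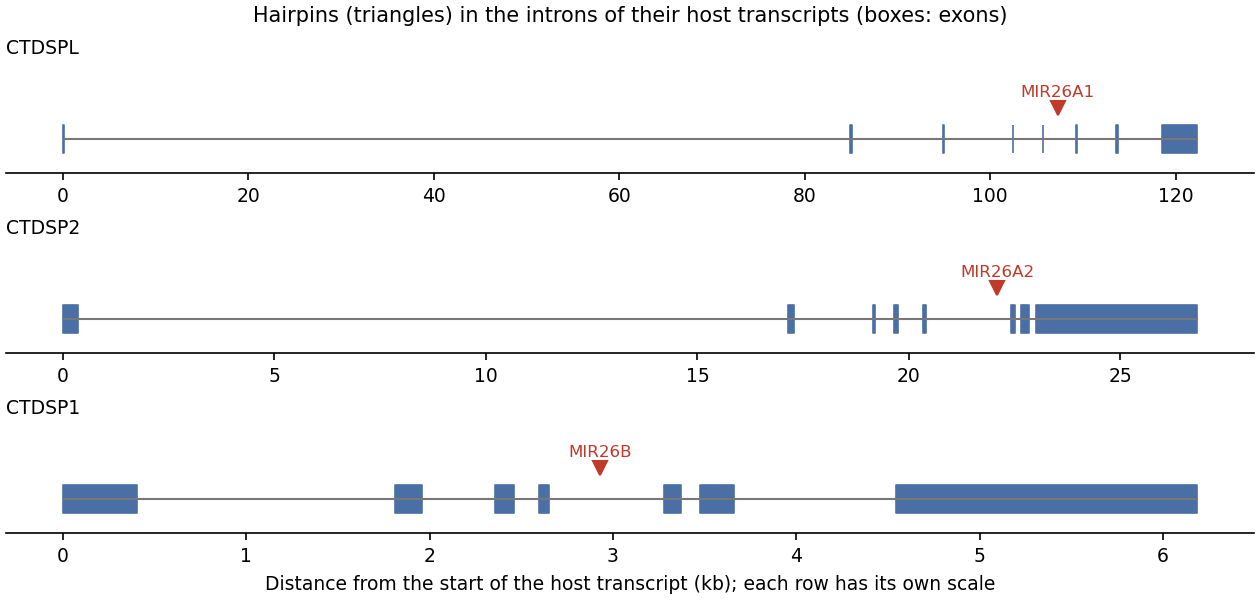
Exons (boxes) of the principal transcripts of CTDSPL, CTDSP2 and CTDSP1 and the hairpin each carries (triangle), by distance in kb from the start of the host transcript, each row on its own scale. Every hairpin falls between exons, in intron 5, 5 and 4 of its host.

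Pairing with the seed was looked up in the principal transcripts' 3′ untranslated regions of the host genes and of EZH2, on the transcript strand only. The motif TACTTGA pairs with bases 2 to 8 of both 5p arms and occurs in 10.5% of 18918 such regions. The motif ACTTGAA pairs with bases 1 to 7, overlaps the first by 6 bases, and occurs in 15.6%. The region of EZH2, 261 bases long, holds each motif once, overlapping in 1 place, against 2.19% and 2.81% of regions within 0.8 to 1.2 times its length. That place is shown with the bases 2 to 8 match in capitals, at chr7:148807385-148807406 on the minus strand:
EZH2: gaataaagaaTACTTGAacttg

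The region of CTDSP2, 3675 bases long, holds ACTTGAA once, against 37.7% of regions of like length, and no TACTTGA. Neither motif is in the regions of CTDSP1 and CTDSPL, 1516 and 3602 bases long. A match of letters is a description, and no target was measured here. EZH2 was looked up with the earlier work on miR-26 known, so the shares of other regions are background and not a test.

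Of all miRNAs in the RefSeq table, 4 names have the seed UCAAGUA, and 3 of them have a row in the count table. These rows held 65274 counts over the 4 libraries, of which 94.1% were miR-26a-5p and 5.87% miR-26b-5p. The other, miR-4465, had 7 and 2 counts in the DMSO libraries and 2 and 0 after entinostat. Among the rows that matched a RefSeq entry, the seed was thus carried almost wholly by the main arms of miR-26. Rows without a match were not searched.

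The libraries held 547875 to 938559 counts, and 401 of 826 miRNAs had enough counts for testing. Levels are given in CPM, counts per 1000000 after trimmed mean of M-values (TMM) scaling, and shares use unscaled totals. Both are relative to the miRNAs counted in a library, so a rise or fall common to all miRNAs would not be seen. Recovery can differ between sequences in such libraries, so a ratio of counts of different miRNAs need not equal the ratio of molecules. Intervals of shares cover counting error only. Same-treatment libraries differed beyond counting noise (chi-square divided by its degrees of freedom, 5.93 for the DMSO pair and 7.51 for the entinostat pair), so neither pair was taken for 1 library deposited again. Libraries of 1 culture could differ as much. Of miRNAs known from other cells, those of blood (miR-142, miR-144, miR-223 and miR-451a) had no row among those analysed here. Those of muscle summed to 5.34 to 12.8 CPM per library without scaling, with miR-1-3p at 0 in 1 library, and miR-122-5p of liver had 5 counts in 1 library and 0 in the others. The epithelial miR-200c-3p and miR-205-5p summed to 28.5 and 33.0 CPM under DMSO and 51.8 and 58.4 CPM under entinostat. These sums rest on few counts. For miR-200c-3p they were 31 and 14 with DMSO and 23 and 35 with entinostat, and for miR-205-5p 0 and 2, and 9 and 4. The epithelial miR-141 had no row among those analysed here. The part of these miRNAs in the results was not tested.

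The main guide strand, miR-26a-5p, was among the most abundant miRNAs of H661 cells. Relative to the other miRNAs, it kept almost the same level in all 4 libraries. It stood at 22303 and 22223 CPM in DMSO replicates 1 and 2 and at 22172 and 21183 CPM in entinostat replicates 1 and 2. These values rest on 20839, 12476, 12046 and 16069 counts. Both entinostat libraries lay below both DMSO libraries, with 1.05 times between the lowest library and the highest. Groups that do not overlap, in either direction, were found for 40.6% of all tested miRNAs. Group means were 22263 ± 56.7 CPM for DMSO and 21678 ± 699.9 CPM for entinostat (SD, n = 2).

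The log2 fold change of miR-26a-5p, entinostat over DMSO, was -0.04 (SE 0.07, edgeR quasi-likelihood test, Benjamini-Hochberg adjusted p = 0.898), and it was 0.07 with upper quartile factors. That scaling moved the median of all tested miRNAs from 0.00466 to 0.12, and relative to the median miR-26a-5p was at -0.04 with TMM and -0.05 with upper quartile factors. The 95% interval ran from 0.870-fold to 1.09-fold, so in this fit a relative change of 1.2-fold in either direction lay outside it. That did not hold in every fit with a library left out. Intervals wholly within 1.2-fold in either direction were found for 31 of the 97 miRNAs with a mean of at least 1000 CPM.

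The second guide strand, miR-26b-5p, was present at a much lower level, and its groups overlapped. It stood at 1270 and 1455 CPM in DMSO replicates 1 and 2 and at 1421 and 1393 CPM in entinostat replicates 1 and 2. Counts behind these values were 1187, 817, 772 and 1057. The lowest and the highest library were both DMSO libraries, and both entinostat libraries lay between them. Group means were 1363 ± 130.7 CPM and 1407 ± 19.5 CPM (SD, n = 2), a log2 fold change of 0.05 (SE 0.10, edgeR adjusted p = 0.924). The interval ran from 0.880-fold to 1.22-fold. The sign rested on DMSO replicate 1, the lowest library, without which the log2 fold change was -0.05 (-0.37 to 0.27).

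The passenger strand miR-26b-3p was near the lower limit of testing. It had 15 counts in each DMSO library and 6 and 12 counts in entinostat replicates 1 and 2. Scaled levels were 16.1 and 26.7 CPM for DMSO and 11.0 and 15.8 CPM for entinostat, so that the groups did not overlap, but the nearest libraries differed by less than 1 count would change. The log2 fold change was -0.56 (SE 0.51, 95% interval -1.72 to 0.59, edgeR adjusted p = 0.741). It was -0.95 without DMSO replicate 1, -0.23 without DMSO replicate 2, -0.36 without entinostat replicate 1 and -0.87 without entinostat replicate 2. A difference between treatments was not detectable at this depth, and the interval left room for changes of more than 2-fold downward.

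**Figure D2:**
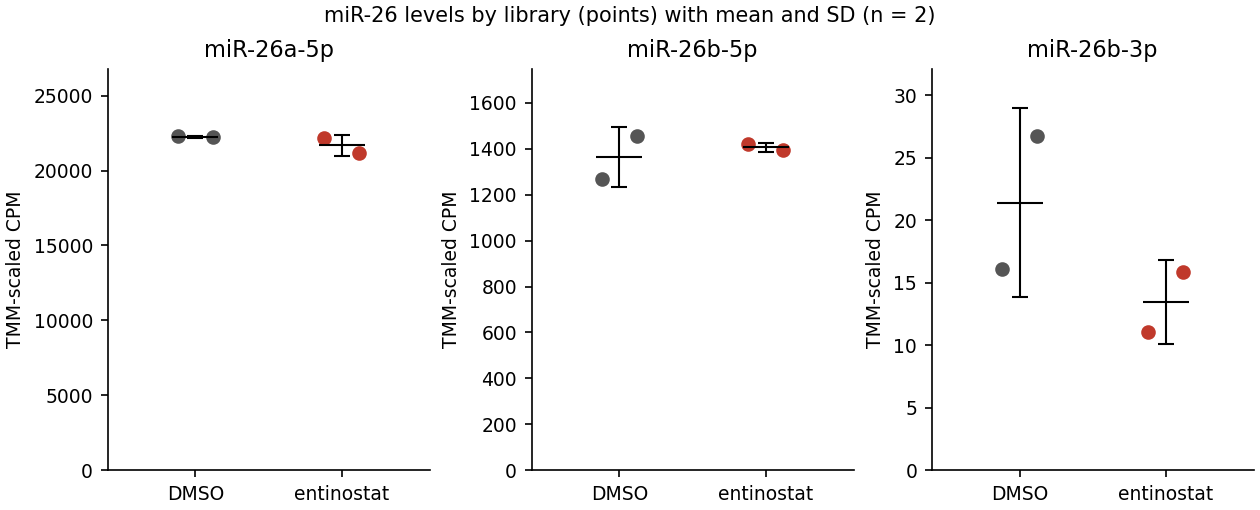
TMM-scaled CPM of miR-26a-5p, miR-26b-5p and miR-26b-3p in each library (points), by treatment, with the group mean and SD (black, n = 2), on axes that start at 0. The points of miR-26a-5p lie between 21183 and 22303 CPM, those of miR-26b-5p overlap between treatments, and those of miR-26b-3p spread from 11.0 to 26.7 CPM.

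The 3p arms of miR-26a were close to undetected. The only counts of miR-26a-1-3p were 2 in DMSO replicate 2, and the only counts of miR-26a-2-3p were 3 in entinostat replicate 2. Neither had enough counts for testing. A count of 0 allowed up to 3.20 CPM in DMSO replicate 1, 5.34 CPM in DMSO replicate 2, 5.48 CPM in entinostat replicate 1 and 3.98 CPM in entinostat replicate 2. The counts that were seen, 3.56 and 3.95 CPM after scaling, are of the size of these limits. Since these arms are the part of the mature products that differs between MIR26A1 and MIR26A2, the counts did not show how much of miR-26a-5p came from either locus.

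None of the 3 tested members was called at an adjusted p of 0.05, and 0% of all tested miRNAs were called (0 of 401, edgeR quasi-likelihood test). No member had an unadjusted p under 0.05, against 6.73% of all tested miRNAs (27 of 401). DESeq2 and limma-voom also called 0 miRNAs, and the edgeR likelihood ratio test called 4, none of them a member. Without entinostat replicate 1 the quasi-likelihood test called 6 miRNAs, again with 0 members.

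**Figure D3:**
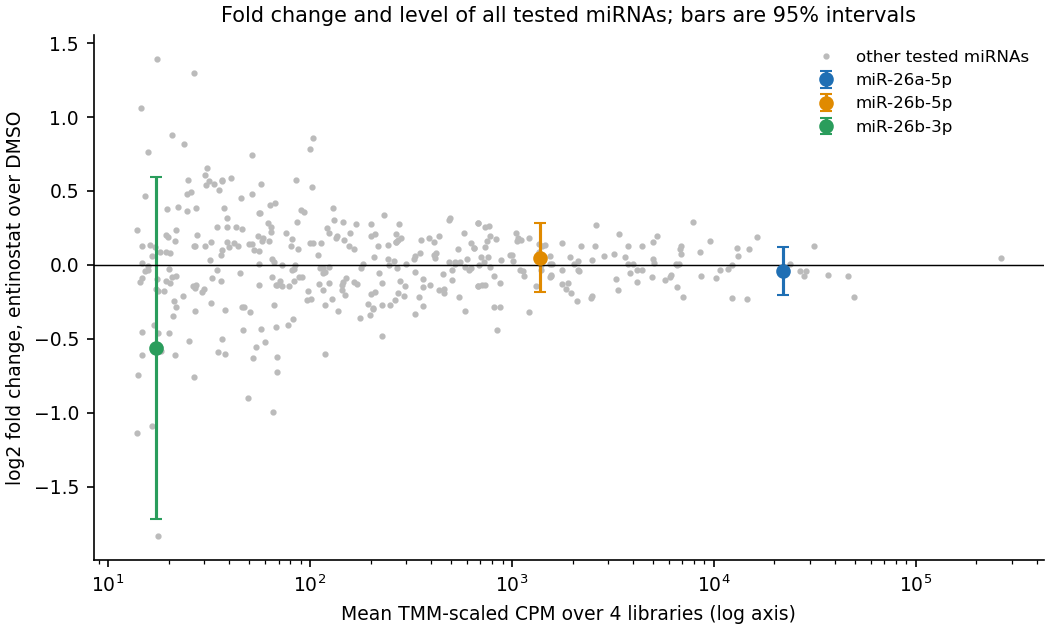
Log2 fold change, entinostat over DMSO, against mean TMM-scaled CPM (log axis) for the 401 tested miRNAs, with 95% intervals for the 3 tested members of miR-26. The 5p arms, at -0.04 and 0.05, lie near 0 with narrow intervals, and the interval of miR-26b-3p runs from -1.72 to 0.59. With upper quartile factors the value of miR-26a-5p was 0.07.

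All 5 rows together made up 2.35% (exact Clopper-Pearson 95% interval 2.32 to 2.38%) and 2.37% (2.33 to 2.41%) of the counts in DMSO replicates 1 and 2. With entinostat the share was 2.34% (2.30 to 2.38%) in replicate 1 and 2.28% (2.24 to 2.31%) in replicate 2. The entinostat libraries lay below the DMSO libraries, by 0.05 percentage points on the mean, and entinostat replicate 2 held most of that difference. Without it the difference was 0.02 percentage points. A two-sided exact permutation test over the libraries gave p = 0.333 (0.444 after Benjamini-Hochberg adjustment over 4 such tests), which is the smallest it can give with 2 against 2.

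Within each library, counts of miR-26a-5p exceeded those of miR-26b-5p many times over. The ratio was 17.6 in DMSO replicate 1 and 15.3 in DMSO replicate 2, and 15.6 and 15.2 in entinostat replicates 1 and 2. DMSO replicate 1 stood above the other 3 libraries, which lay close together. The mean ratio was 16.4 ± 1.62 with DMSO and 15.4 ± 0.284 with entinostat (SD, n = 2), a log2 difference of -0.09 (two-sided exact permutation test, p = 0.667, adjusted p = 0.667). Without DMSO replicate 1 that difference was 0.01. Because the ratio is formed within a library, it does not depend on the scaling between libraries.

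The 3p arm was seen less often for miR-26a, whose counts pool MIR26A1 and MIR26A2, than for miR-26b, in counts of these libraries. For miR-26a, 5 of 61435 counts were 3p, a share of 0.00814% (exact 95% interval 0.00264 to 0.0190%). For miR-26b it was 48 of 3881 counts, a share of 1.24% (0.913 to 1.64%). By library the 3p share of miR-26b was 1.25% and 1.80% with DMSO and 0.771% and 1.12% with entinostat. The 3p share of miR-26a was 0% and 0.0160% with DMSO and 0% and 0.0187% with entinostat. The share was higher for miR-26b in 4 of 4 libraries, and the two-sided exact sign-flip permutation test gave p = 0.125 (adjusted p = 0.444), the smallest it can give with 4 libraries. Between treatments the 3p share of miR-26b was 1.53 ± 0.392% with DMSO and 0.947 ± 0.248% with entinostat (SD, n = 2; exact permutation p = 0.333, adjusted p = 0.444).

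Set among other miRNAs, miR-26a was at one end of the range of arm use and miR-26b was near its middle. Both arms were listed for 102 miRNA names with 1000 or more counts in all, copies of a hairpin summed. In order of the share of the lesser arm, miR-26a came second lowest of these 102, after miR-615, whose 5p arm had 2 of 34402 counts. The order depends on depth, because names with few counts in all could not show a share as low as that of miR-26a. For example, miR-1271, at place 13, had 2 of 1022 counts in its lesser arm, a share of 0.196%. The median share was 1.94%, and miR-26b stood at place 46. The interval of miR-26a overlapped those of 5 others (miR-615, miR-99a, miR-182, miR-30d and let-7f, the last at place 8), so its place is not settled by the counts. A further 20 names with 1000 or more counts had rows for 1 arm only and were not ranked. Among them was miR-103a, with 26762 counts of its 3p arm, where a count of 0 for the other arm would allow a share of up to 0.0112%. Such a limit lay below the upper bound of the miR-26a interval for 2 of the 20 names. For 1 of them it lay below the share of miR-26a itself, so the second place holds only among the 102 ranked names.

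**Figure D4:**
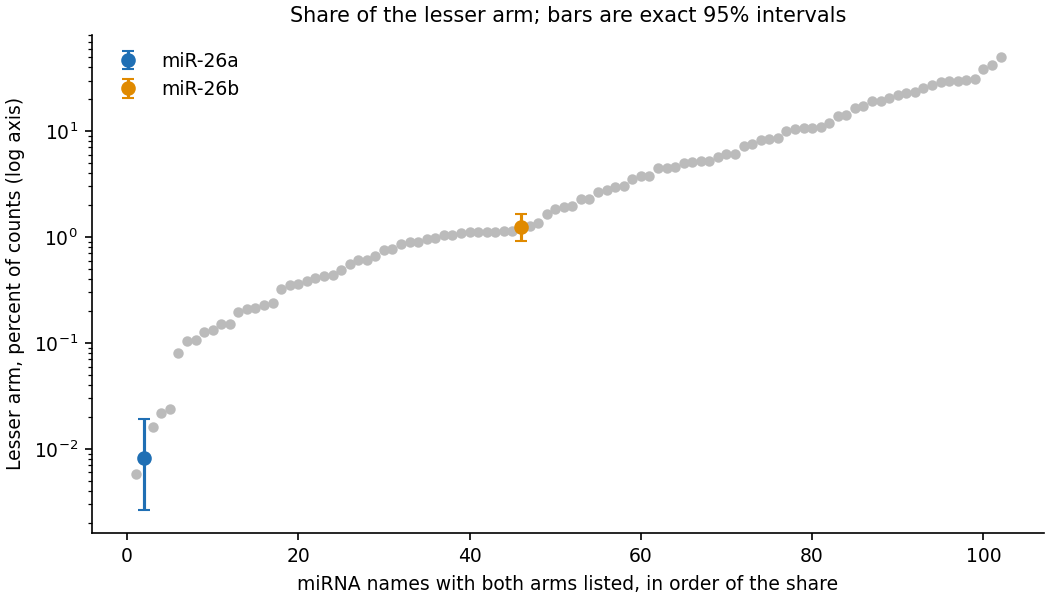
Share of the lesser arm in percent of counts (log axis) for 102 miRNA names with both arms listed and 1000 or more counts, in ascending order, with exact 95% intervals for miR-26a and miR-26b. The lesser arm of miR-26a is at 0.00814%, the second lowest of those plotted, and that of miR-26b is at 1.24%, near the median of 1.94%.

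In the order of mean levels, miR-26a-5p was at place 10 of all miRNAs and held rank 10 in each library. Its libraries, at 21183 to 22303 CPM, did not overlap those of miR-151a-3p above it (23260 to 24580 CPM) or miR-191-5p at place 8 (26124 to 28397 CPM). Below it came miR-21-5p (14149 to 19165 CPM) and miR-24-3p (13388 to 16761 CPM), also without overlap. The order around miR-26b-5p, at place 83, was not resolved. Its 1270 to 1455 CPM overlapped the ranges of miR-181a-3p and miR-30e-3p above it and of miR-17-5p and miR-140-3p below it.

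Variation across libraries was small for miR-26a-5p and ordinary for miR-26b-5p. Over the 4 libraries the coefficient of variation was 2.40% for miR-26a-5p and 5.81% for miR-26b-5p, against a median of 6.45% among the 97 miRNAs of 1000 CPM or more. By the SD of log2 levels, miR-26a-5p had the ninth smallest spread of those 97 (0.04) and miR-26b-5p stood at place 46 (0.09). Counting alone would give a coefficient of variation of 0.693 to 0.911% per library for miR-26a-5p and of 2.90 to 3.60% for miR-26b-5p. The spread of miR-26a-5p was thus small but larger than counting error.

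The miRNAs whose profile over the 4 libraries lay closest to miR-26a-5p were miR-183-5p, miR-378a-3p, miR-1301-3p and miR-423-3p. Closeness was the root mean square difference of log2 levels, each centred on its own mean over the 4 libraries, among the 97 miRNAs of 1000 CPM or more. These distances were 0.02, 0.02, 0.02 and 0.03, against a median of 0.09. For miR-26b-5p the closest were miR-182-5p, miR-744-5p, miR-148a-3p and let-7c-5p, at 0.04 each, against a median of 0.12. The miR-26 guide strands were not among each other's closest, with miR-26b-5p at place 47 of 96 from miR-26a-5p, at a distance of 0.08. With 4 libraries and differences of this size, such an order is only a description.

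Other miRNAs tied to the same regulators were compared by lists of names recalled from earlier work. Names were matched without the arm, so the counts of rows below mix guide and passenger arms, whose seeds differ. The list of miRNAs that MYC represses, to which miR-26 belongs, had 34 tested rows, of which 0 were called, 16 lay above 0 and 18 below, or 25 above 0 with upper quartile factors. Its median log2 fold change was -0.03 (0.08 with upper quartile factors), against 0.00466 (0.12) over all tested miRNAs. With TMM, 208 of all tested miRNAs lay above 0 and 193 below. Upper quartile factors raised the median of all tested miRNAs, so counts above 0 with them are not comparable with the 208. Without the 3 rows of miR-26, 15 of the other 31 lay above 0 and the median was -0.03. An unadjusted p under 0.05 was given to 4 of the 34 rows, against 6.73% of all tested miRNAs, none of the 4 from miR-26 (named here after their values were seen, with log2 fold changes: miR-22-3p at -0.32, miR-195-3p at 0.86, let-7e-3p at -0.60 and let-7b-3p at -1.84), and each had an edgeR adjusted p of 0.316 or more. Its 3 most abundant members were miR-30c-5p (log2 fold change -0.07, or 0.04 with upper quartile factors), miR-30a-5p (0.13) and miR-26a-5p itself. The list of miRNAs reported to target EZH2 had 10 tested rows, of which 0 were called, 5 lay above 0 and 5 below, with a median of -0.01 (0.10 with upper quartile factors). Without the 3 rows of miR-26, 4 of the other 7 lay above 0 and the median was 0.01. Besides miR-26 its abundant members were let-7a-5p at 5031 ± 301.8 CPM for DMSO and 5072 ± 523.7 CPM for entinostat, and let-7c-5p at 8266 ± 338.4 and 8781 ± 133.3 CPM (SD, n = 2). The miR-30 family, also on the list of miRNAs that MYC represses, had 9 tested rows of both arms, 6 of them at 1000 CPM or more. Of these 9 rows, 0 were called, 4 lay above 0 and 5 below, or 8 above 0 with upper quartile factors. The family's other abundant rows were miR-30a-3p (0.12), miR-30c-2-3p (0.15), miR-30d-5p (-0.03, or 0.09 with upper quartile factors) and miR-30e-3p (-0.04, or 0.07). Like miR-26, the miR-103 and miR-107 guides come from introns of a gene family, the pantothenate kinases. Their tested rows, miR-103a-3p at a log2 fold change of 0.16 (-0.04 to 0.36) and miR-107 at 0.07 (-0.16 to 0.29), were not called either. The intervals of these rows overlapped those of both miR-26 guides, and the difference between the families was not tested.

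Across the 17 alternatives that keep its row, the log2 fold change of miR-26a-5p ranged from -0.07 to 0.07, and 0 of the members were called in any of the 18 alternatives run. Summing the 5p rows of miR-26a and miR-26b gave a log2 fold change of -0.04 for the sum (-0.20 to 0.12, edgeR adjusted p = 0.889). The sum does not depend on how shared reads were split between the rows, but it would if such reads were dropped or counted in both. Most of its counts are miR-26a-5p, so it says little about the row of miR-26b-5p. For miR-26b-5p the 17 alternatives that keep its row ranged from -0.05 to 0.16.

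**Figure D5:**
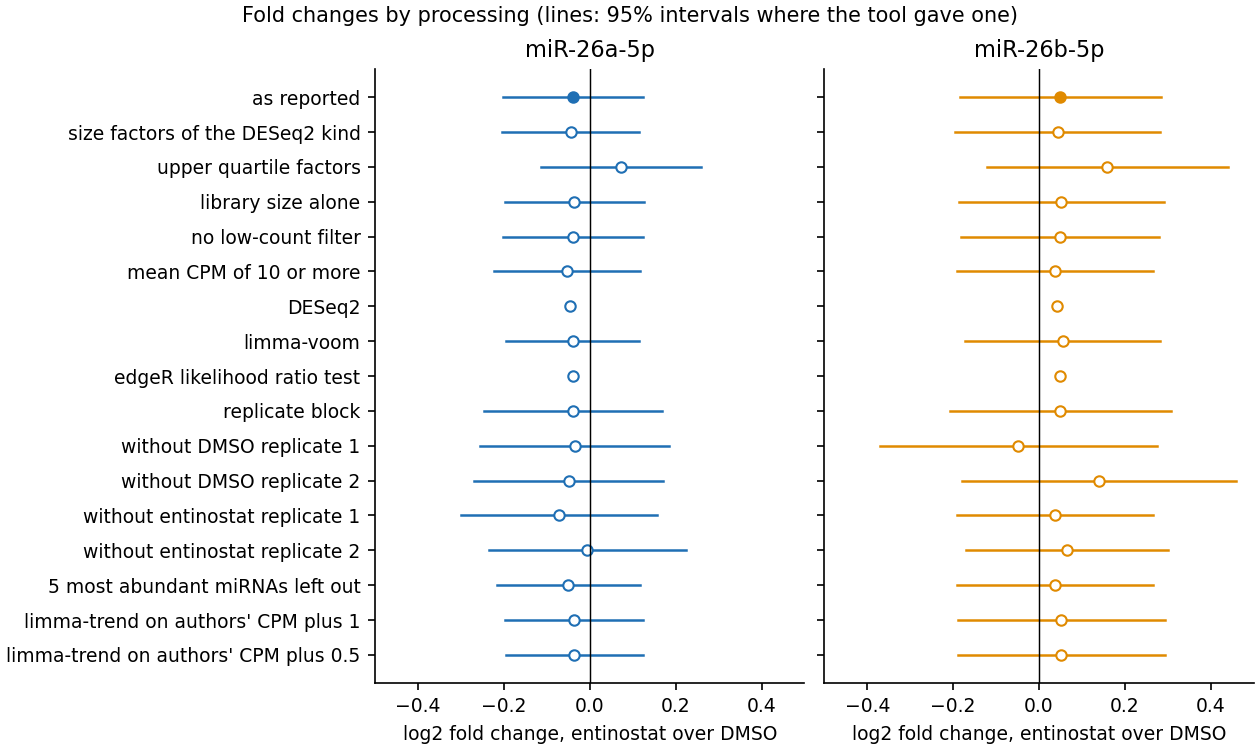
Log2 fold change, entinostat over DMSO, of miR-26a-5p and miR-26b-5p under each way of processing planned for it, with 95% intervals where the tool gave one. Points of miR-26a-5p lie between -0.07 and 0.07 and turn positive with upper quartile factors, and those of miR-26b-5p turn negative without DMSO replicate 1. Each interval drawn includes 0.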

How the data were processed

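Small RNA libraries were made with New England Biolabs reagents from 1 µg of total RNA, and bcl2fastq 2.18 was used, per the submitters' processing notes and the labels' protocols. Names of the aligner, counter, annotation and genome build were not given in the sources used here. The authors deposited whole-number counts per mature miRNA (826 rows, 4 libraries) and CPM. The deposited CPM equal count over column total times 1000000, within 0.0001 in all 826 rows.

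Counts were tested with edgeR 4.0.16 (TMM, quasi-likelihood, filterByExpr with minimum count 10 and total 15, treatment as the only term) in R 4.3.3, which kept 401 rows. Benjamini-Hochberg adjustment covered all 401, with a threshold of 0.05, and 95% intervals use the fitted standard error. The method was tested on simulated data. Alternatives used DESeq2 1.42.0, limma 3.58.1 (voom, and trend on log2 of deposited CPM plus 1 or 0.5), other scaling and filters, a replicate block and each library left out. Other steps used Python 3.11.15 with SciPy 1.17.1.

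Members and lists were chosen with earlier results of these data known. Named besides the members were miRNAs of the same seed, the 4 closest profiles, the 2 neighbours on each side in level, and abundant list members (the 3 highest where over 6). Groups came from sample titles. Principal transcripts are those of GENCODE 29 by APPRIS rank, then length.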

Additional observations from a re-analysis of the deposited data

How the results depend on the processing

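No alternative called a member of miR-26. Of 17 alternatives that keep its row, 16 kept the sign of miR-26a-5p, which was 0.073 (log2) with upper quartile factors, and leaving out a library gave -0.07 to -0.01. For miR-26b-5p 16 of 17 kept the sign, and leaving out a library gave -0.048 to 0.14, negative without DMSO replicate 1. All 18 run kept the sign of miR-26b-3p. The log2 ratio of miR-26a-5p to miR-26b-5p, entinostat minus DMSO, ran from -0.19 to 0.012 with a library left out, positive without DMSO replicate 1, and the difference in family share from -0.08 to -0.02 percentage points. Over all tested miRNAs the likelihood ratio test called 4, and leaving out a library gave 0 to 6 calls. A lone library was taken to vary like the other group. The cause of these changes was not tested.

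Deviations of same-numbered libraries from their group means had a weak negative correlation (r = -0.111 over 401 miRNAs and -0.362 over the 97 of 1000 CPM or more, across genes). The replicate number was therefore not taken to pair them. DMSO replicate 1 and entinostat replicate 2 had the most counts (938559 and 753104), and a link to depth was not tested. With a replicate block the values were -0.04 for miR-26a-5p, 0.05 for miR-26b-5p and -0.66 for miR-26b-3p, with 0 miRNAs called. The crossed pairing, added after seeing the data, also called 0, with 32 at an unadjusted p under 0.05. Depth limits miR-26b-3p and the miR-26a 3p arms, which rest on at most 15 counts per library.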
